A study of Mus musculus with 12 samples.

Results

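The 10 genes described here are the metallothioneins Mt1, Mt2 and Mt3, the corticosteroid receptors Nr3c1 and Nr3c2, and 5 genes known to be induced by glucocorticoids, Fkbp5, Sgk1, Tsc22d3, Zbtb16 and Cdkn1a. They were taken by name from a table of 14881 genes, and all 10 were present and stayed in the test. RNA was sequenced as 12 libraries from male mice labelled APPswe, a strain with a transgene for a mutant amyloid precursor protein, aged 22 to 26 months. Into the cisterna magna went 5 µL of AAV1, an adeno-associated virus whose cargo was driven by the broadly active CMV promoter, and antibody was given weekly into the peritoneum at 40 mg/kg. Each library is taken here as 1 mouse, and whether libraries share material is not stated in the labels. With 3 mice in each of 4 groups, mVEGF-C+mAdu was given to mice 10 to 12 and mVEGF-C+mIgG to mice 7 to 9, while eGFP+mAdu was given to mice 4 to 6 and eGFP+mIgG to mice 1 to 3. mVEGF-C is mouse vascular endothelial growth factor C, eGFP the control protein, mAdu (mAducanumab) an antibody against amyloid beta and mIgG the control antibody. By the labels, all groups had the transgene, a virus and an antibody, and no untreated mouse was among them.

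Metallothioneins are small cysteine-rich proteins that bind zinc and copper. Mt1 and Mt2 are made mainly by astrocytes and other non-neuronal cells of the brain and are induced by metals, through the metal-responsive factor MTF1, and by glucocorticoids, while Mt3 is the form typical of the brain. Corticosterone acts in the hippocampus through the glucocorticoid receptor, encoded by Nr3c1, and the mineralocorticoid receptor, encoded by Nr3c2, which binds the hormone more tightly. Once bound, the receptors enter the nucleus and switch on genes such as Fkbp5, whose product lowers the receptor's affinity for the hormone.

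The 3 metallothionein genes lie beside each other on chromosome 8 of mm10, on the plus strand: Mt3 (ENSMUSG00000031760) from 94152607 to 94154146, Mt2 (ENSMUSG00000031762) from 94172664 to 94173568 and Mt1 (ENSMUSG00000031765) from 94179082 to 94180327. The 250 bases before the RefSeq start of each (GRCm38.p6) are shown because Mt1 and Mt2 were lower together in these mice. A window of Sgk1 follows as the only member window with a full glucocorticoid response element. Capitals mark the core of the metal response element (TGCGCNC or TGCACNC, either strand) in the metallothioneins and the full glucocorticoid response element (AGAACA, any 3 bases, then TGTTCT) in Sgk1.
Mt1 (chr8:94178839-94179088, plus strand): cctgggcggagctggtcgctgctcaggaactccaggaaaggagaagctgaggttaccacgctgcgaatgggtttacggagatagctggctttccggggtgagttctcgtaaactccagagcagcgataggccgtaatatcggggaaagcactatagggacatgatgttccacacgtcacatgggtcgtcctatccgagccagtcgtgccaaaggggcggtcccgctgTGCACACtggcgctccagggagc
Mt2 (chr8:94172368-94172617, plus strand): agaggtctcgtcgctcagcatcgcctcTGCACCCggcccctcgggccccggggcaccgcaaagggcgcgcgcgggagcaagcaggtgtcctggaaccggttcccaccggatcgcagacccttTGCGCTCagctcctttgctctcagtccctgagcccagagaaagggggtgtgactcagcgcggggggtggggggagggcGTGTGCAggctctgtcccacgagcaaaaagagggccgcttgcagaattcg
Mt3 (chr8:94152357-94152606, plus strand): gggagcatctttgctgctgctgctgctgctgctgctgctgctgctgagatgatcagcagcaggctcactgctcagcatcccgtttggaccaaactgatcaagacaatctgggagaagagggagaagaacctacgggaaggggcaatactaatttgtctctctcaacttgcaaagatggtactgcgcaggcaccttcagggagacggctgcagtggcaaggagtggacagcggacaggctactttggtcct
Sgk1 (chr10:21993640-21993889, plus strand): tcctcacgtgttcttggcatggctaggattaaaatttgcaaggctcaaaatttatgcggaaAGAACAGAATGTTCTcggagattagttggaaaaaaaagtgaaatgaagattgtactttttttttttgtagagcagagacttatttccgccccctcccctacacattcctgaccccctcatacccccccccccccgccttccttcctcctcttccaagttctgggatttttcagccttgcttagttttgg
Within these 250 bases the metal element core occurred 1 time for Mt1, 3 times for Mt2 and 0 times for Mt3, and 21.4% of 32851 mouse promoter windows of that length held at least 1. In the 50 bases after each RefSeq start, Mt1 had 2 more cores, at positions 3 and 21, Mt2 had 1 at position 5 and Mt3 had 1 at position 28. Bases further on were not scanned. The annotated exons of Mt1 join into 1 block of 1246 bases, and where most of its transcripts start was not tested. Whether its cores lie before or within the transcript is therefore not settled. Of all windows of 300 bases, which add those 50, 25.7% held at least 1 core and 1.97% held 3 or more. Among the other members, Nr3c2 had 1 core at position -29 and 1 of the Sgk1 windows had 1 at position 12. The full glucocorticoid element of Sgk1 began 189 bases before its start, and 3 of all windows (0.00913%) held one. Of the 10 genes, 8 had a window in the RefSeq table, 16 windows in all, and Zbtb16 and Nr3c1 are named only. These matches describe letters and say nothing of binding.

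Libraries held 23213612 to 29295266 counted reads. The sample label names brain meninges and the series description the whole hippocampus. Summed over 10 markers, excitatory neurons of the hippocampus ran from 2336.5 to 2616 CPM (reads of a gene relative to the TMM-scaled library total) and meningeal and perivascular fibroblasts from 322 to 588 CPM. The neuron sum was the higher, but such sums depend on which genes are listed and do not settle the tissue. In each group 1 library, from mouse 3, 6, 9 or 12, held the middle value in 84.1% to 97% of genes at a mean of 10 CPM or more whose log2 range in the group exceeded 0.5, where an equal share is 33.3%. Without the CPM minimum, which was set after seeing that value, it was 47.3% to 62.6%. These are called the intermediate libraries, and any sharing of material between libraries would make p too small. App, whose mutant human form the strain carries, stood at 1342 CPM for mouse 5 and 3716 CPM for mouse 6, both eGFP+mAdu, while the other 10 mice had 4721 to 5507 CPM. Whether mice 5 and 6 carried the transgene as labelled was not tested.

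Levels are set side by side between genes per kilobase (kb) of all annotated exons. This takes reads to scale with that length, which was not tested, and the labels name linear RNA amplification. The order of genes is therefore a rough one. On that scale Mt3 was highest at 109 ± 9.50 CPM per kb (SD, n = 12), followed by Mt1 at 81.1 ± 8.12 and Mt2 at 67.7 ± 12.8. The annotated exons of Mt1 join into 1 block of 1246 bases, its whole span with its introns, so its place in this order rests on that length. Nr3c2 lay at 46.2 ± 2.98 CPM per kb and Nr3c1 at 24.2 ± 1.503 CPM per kb. Tsc22d3 at 17.0 ± 1.74 and Sgk1 at 16.6 ± 2.37 CPM per kb did not differ beyond their spread. Zbtb16 (9.56 ± 0.775), Fkbp5 (5.31 ± 0.377) and Cdkn1a (0.423 ± 0.103 CPM per kb) were lowest. Cdkn1a rested on 22 to 54 reads per library and the other 9 genes on at least 777.

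**Figure D1:**
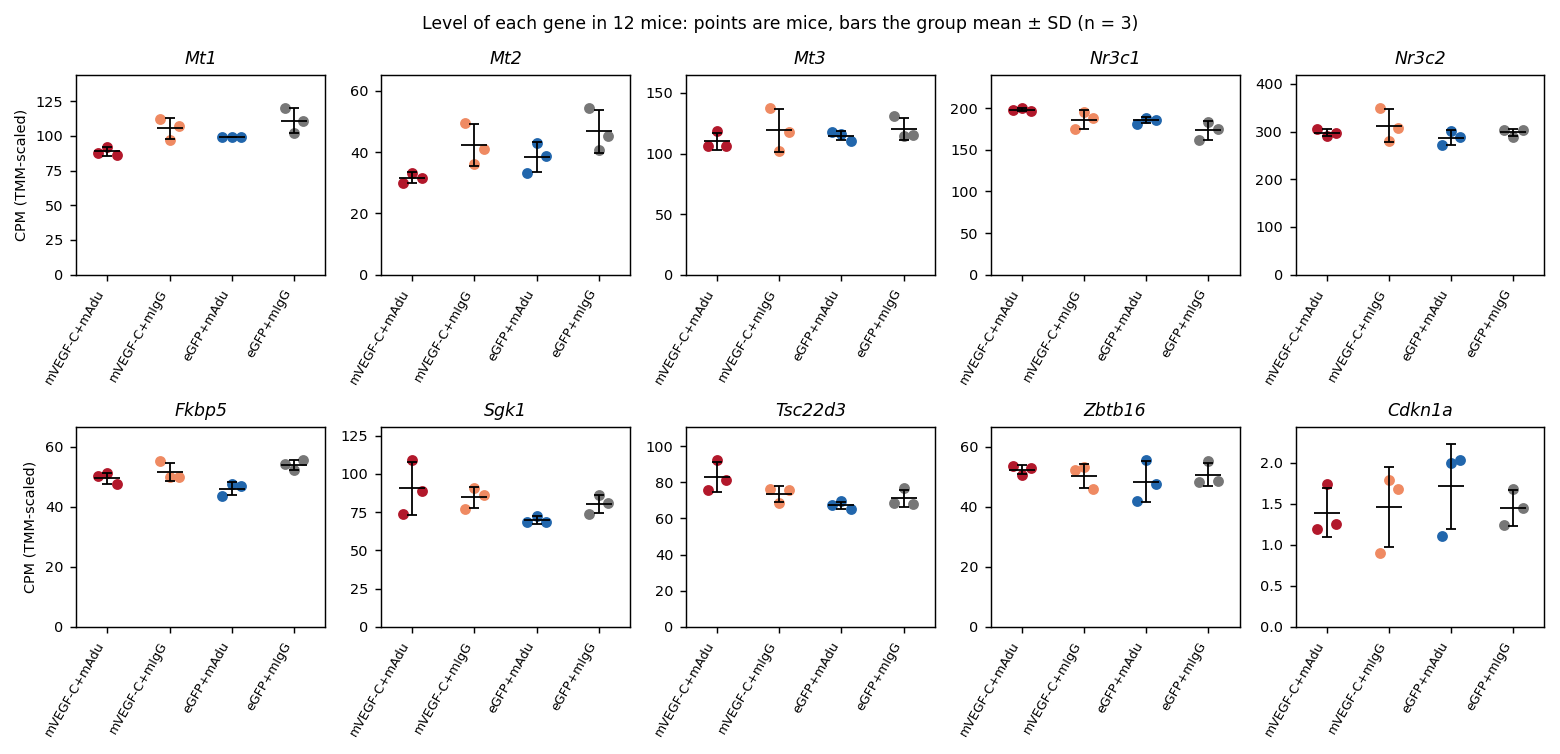
CPM of each of the 10 genes (vertical axis, linear from 0) by group; points are mice and bars the mean ± SD of 3 mice. Mt1 was lowest in mVEGF-C+mAdu, at 86.2 to 92.3 CPM, below every mouse of the other groups.

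The combined treatment was compared with the double control, mVEGF-C+mAdu against eGFP+mIgG. Mt1 and Mt2 fell and Nr3c1 rose, and the other 7 genes did not pass. Throughout, p came from the quasi-likelihood test of edgeR and was adjusted by Benjamini-Hochberg over 14881 genes, and adjusted p under 0.05 passed. Of the 10 genes 1 passed as higher and 2 as lower, and of all genes 2.18% passed, 1.19% higher and 0.988% lower. An unadjusted p under 0.05 was found for 5 of the 10 and for 20.4% of all genes. The median log2 change was -0.03 over the 10 genes and -0.0036 over all genes.

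Mt1 was at 87.8, 92.3 and 86.2 CPM in mVEGF-C+mAdu mice, against 120.2, 102 and 111 CPM in eGFP+mIgG mice. Every mouse with the combined treatment was below every double control, and the change was -0.32 on the log2 scale (SE 0.058, a change of -20.1%, edgeR adjusted p = 0.0173). Mt2 was at 29.8, 33.3 and 31.7 CPM in mVEGF-C+mAdu mice, against 54.5, 40.7 and 45.3 CPM in eGFP+mIgG mice. These groups did not overlap either, with a log2 change of -0.57 (SE 0.119, edgeR adjusted p = 0.0277). Reads of Mt1 and Mt2, which are close paralogs, may have been split between them in ways the sources used here do not give. Mt3 was at 106, 118 and 106 CPM in mVEGF-C+mAdu mice, against 131, 114 and 116 CPM in eGFP+mIgG mice. Its groups overlapped, and its log2 change of -0.13 (SE 0.083) did not pass (edgeR adjusted p = 0.414).

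Nr3c1 (ENSMUSG00000024431) was at 197.5, 200.4 and 197 CPM in mVEGF-C+mAdu mice, against 161, 184 and 174 CPM in eGFP+mIgG mice. All 3 treated mice were higher than all 3 controls, with a log2 change of 0.20 (SE 0.049, 14.5% higher), just past the threshold (edgeR adjusted p = 0.0493). Nr3c2 (ENSMUSG00000031618, chromosome 8 from 76899442 to 77245012) was at 305, 291 and 297 CPM in mVEGF-C+mAdu mice, against 303, 289.6 and 303 CPM in eGFP+mIgG mice. The groups overlapped, with a log2 change of -0.0047 (SE 0.062). In the other groups it was at 349.9, 280.1 and 308 CPM (mVEGF-C+mIgG) and 272, 302 and 289 CPM (eGFP+mAdu). It shares 247 exon bases with Gm10649 on the opposite strand, whose reads cannot be told apart without strand.

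The 5 induced genes lie on other chromosomes: Fkbp5 on 17 (28399094 to 28517527), Cdkn1a on 17 (29090976 to 29100727), Sgk1 on 10 (21882184 to 21999903), Zbtb16 on 9 (48654297 to 48836222) and Tsc22d3 on X (140539528 to 140600659). None of the 5 passed in this comparison. Tsc22d3, which encodes the anti-inflammatory protein GILZ, was at 75.4, 92.2 and 81.1 CPM in mVEGF-C+mAdu mice, against 68.7, 76.5 and 68.2 CPM in eGFP+mIgG mice (log2 0.22, SE 0.067, edgeR adjusted p = 0.0814). Fkbp5, the co-chaperone of the receptor, was at 50.1, 51.1 and 47.5 CPM in mVEGF-C+mAdu mice, against 54.2, 52.3 and 55.5 CPM in eGFP+mIgG mice (log2 -0.12, SE 0.052, edgeR adjusted p = 0.191). Tsc22d3 was thus the higher and Fkbp5 the lower in the treated mice, and the groups overlapped for Tsc22d3 alone of this pair. Sgk1, a kinase that regulates ion transport, had a log2 change of 0.17 (SE 0.101), Zbtb16, a zinc finger transcription factor, 0.05 (SE 0.085) and Cdkn1a, the cell cycle inhibitor p21, -0.05 (SE 0.282). The groups did not overlap for 4 of the 10 genes, Mt1, Mt2, Fkbp5 and Nr3c1, and for 27.2% of all genes. Leaving out 1 mouse at a time, Tsc22d3 passed in 1 of 12 fits, without mouse 2 (edgeR adjusted p = 0.0495), and its log2 change was 0.14 without mouse 11 (edgeR adjusted p = 0.223). That of Fkbp5 was -0.07 without the intermediate libraries (SE 0.074, edgeR adjusted p = 0.794).

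**Figure D2:**
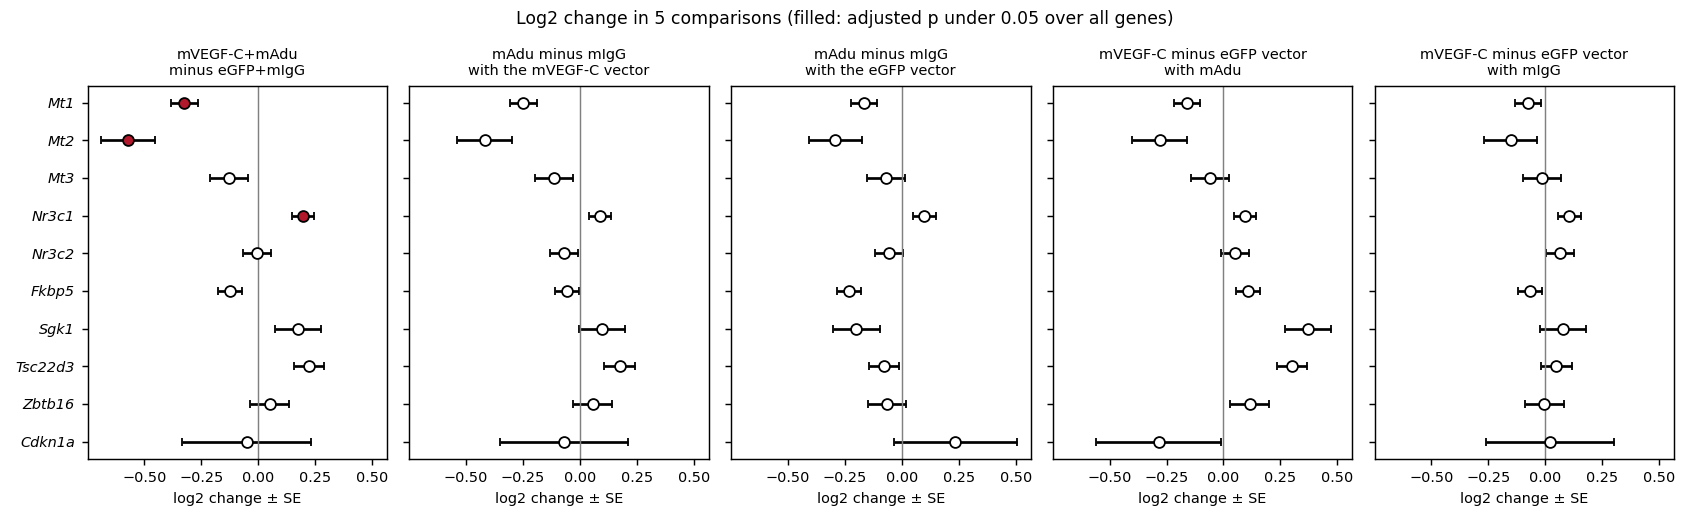
Log2 change ± SE of the 10 genes (horizontal axis) in the combined comparison and the 4 comparisons of 1 treatment at a time; filled points passed. Filled points are Mt1, Mt2 and Nr3c1 in the first panel, and no gene is filled in the other 4.

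Whether these genes passed changed when single libraries or the intermediate ones were left out, in fits that also had fewer residual degrees of freedom. In turn without mouse 1, 3, 10 and 12, the edgeR adjusted p was 0.0908, 0.0561, 0.071 and 0.0973 for Mt1 and 0.141, 0.0743, 0.118 and 0.119 for Mt2. Nr3c1 passed without mouse 2, 7 or 8. In turn without mice 1, 3, 4, 5, 6, 9, 10, 11 and 12 its edgeR adjusted p was 0.212, 0.12, 0.052, 0.054, 0.077, 0.0728, 0.139, 0.0939 and 0.145. Mice 4, 5, 6 and 9 are in neither group compared. Without each of them the log2 change of Nr3c1 stayed at 0.1956, 0.1956, 0.1955 and 0.1955. Without all 4 intermediate libraries none of the 3 passed, each at an edgeR adjusted p = 0.56, and 0.0134% of all genes did. The log2 changes there were -0.30 (SE 0.089) for Mt1, -0.59 (SE 0.179) for Mt2 and 0.21 (SE 0.079) for Nr3c1.

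**Figure D3:**
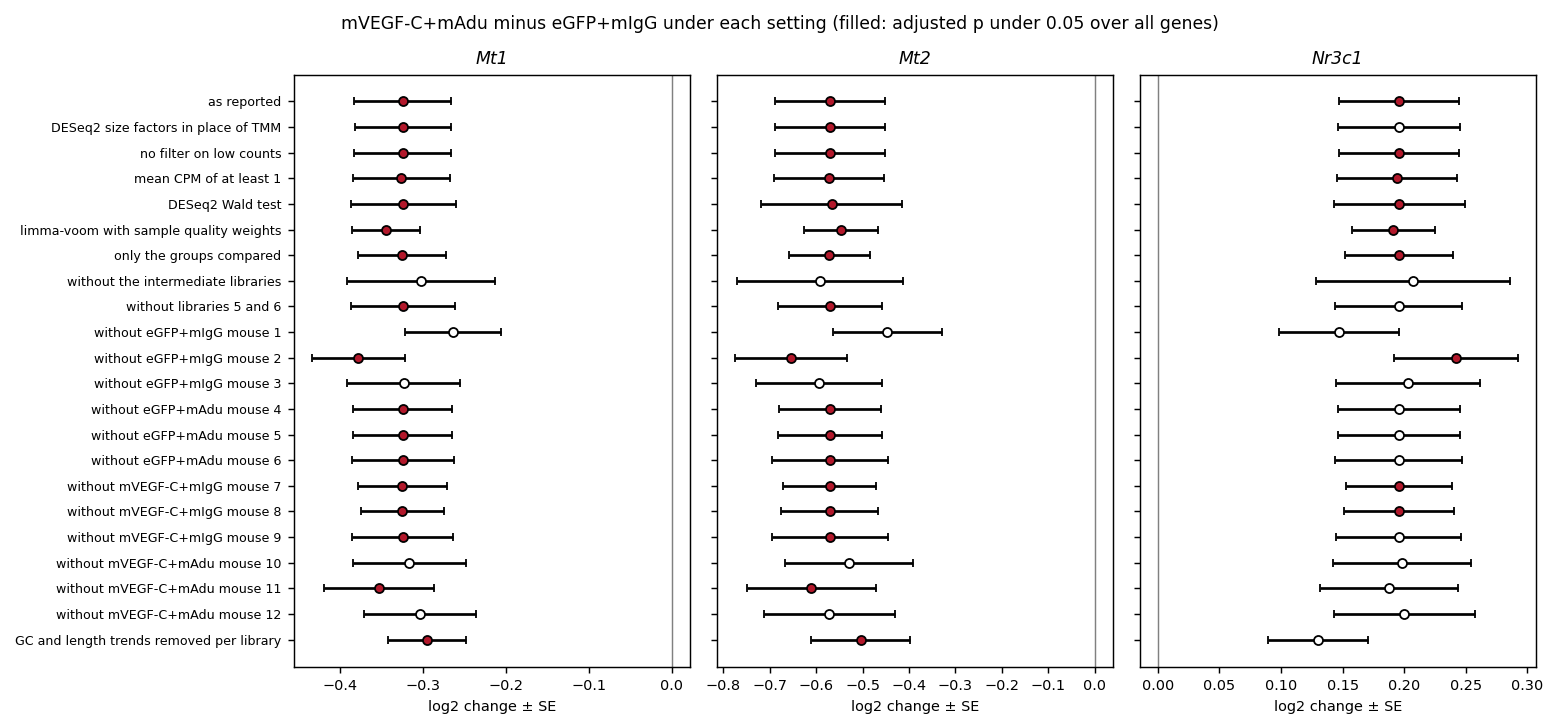
Log2 change ± SE of Mt1, Mt2 and Nr3c1 for mVEGF-C+mAdu minus eGFP+mIgG (horizontal axes, scaled per gene) under each setting (rows); filled points passed. Every point keeps its sign, Mt1 from -0.38 without mouse 2 to -0.26 without mouse 1, and none of the 3 is filled without the intermediate libraries.

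The GC content of transcripts moved with the same comparison. The median centred log2 CPM of transcripts under 43% GC was 0.013 to 0.091 in mVEGF-C+mAdu mice and -0.054 to -0.029 in eGFP+mIgG mice, and that of transcripts over 55% GC was -0.07 to -0.005 in mVEGF-C+mAdu mice and 0.011 to 0.04 in eGFP+mIgG mice. The longest transcript had 42.2% GC for Nr3c1, 52.9% for Mt1, 55.6% for Mt2 and 62.3% for Mt3. With trends in GC content and length removed from each library, 0.544% of all genes passed in this comparison, against 2.18% with them kept. Mt1 (log2 -0.30, edgeR adjusted p = 0.018) and Mt2 (log2 -0.50, edgeR adjusted p = 0.0492) passed there. Nr3c1 did not (log2 0.13, SE 0.041, edgeR adjusted p = 0.138).

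**Figure D4:**
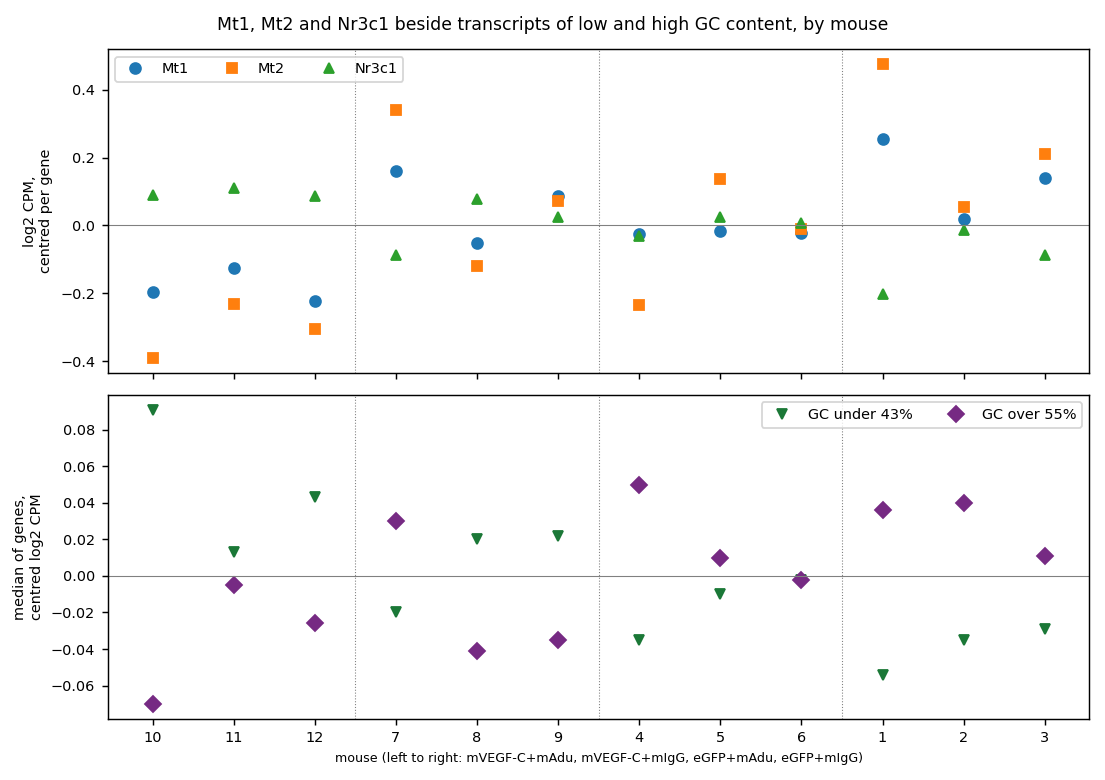
Upper panel, log2 CPM of Mt1, Mt2 and Nr3c1 centred per gene (vertical axis) by mouse; lower panel, the median centred log2 CPM of transcripts under 43% and over 55% GC in the same mice. Mice 10 to 12 are low for Mt1 and Mt2 and high for Nr3c1, and their low-GC medians, 0.013 to 0.091, lie above those of mice 1 to 3.

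Levels of cell type markers bear on bulk tissue, where fewer cells of a type and less RNA per cell cannot be told apart. Summed over 10 astrocyte markers, expression was 4196 to 4447 CPM in mVEGF-C+mAdu mice and 4010.5 to 4547 CPM in eGFP+mIgG mice, so the groups overlapped. A negative log2 change was found for 6 of the 10, with a median of -0.014 over the list. Only Aldh1l1, a folate enzyme of astrocytes, passed, and it fell (log2 -0.21, SE 0.051, edgeR adjusted p = 0.0457). Without mouse 2, the astrocyte marker Fgfr3 passed too, as higher. Choroid plexus markers summed to 48.1 to 49.4 CPM in mVEGF-C+mAdu mice and 64.8 to 109 CPM in eGFP+mIgG mice, and their part in the results was not tested. Most of that difference was Ttr, at 16.6 ± 2.24 CPM in mVEGF-C+mAdu mice and 51.6 ± 21.9 CPM in eGFP+mIgG mice (SD, n = 3 each). Fibroblast markers summed to 338 to 347 CPM in mVEGF-C+mAdu mice and 444 to 462 CPM in eGFP+mIgG mice, and their part was not tested either. The largest part of each sum was Ptgds, at 176 ± 11.5 CPM in mVEGF-C+mAdu mice and 259 ± 7.87 CPM in eGFP+mIgG mice. All 10 of these markers had a negative log2 change. Of the other marker lists, in the combined comparison, 2 of 10 microglial genes, C1qa and C1qb, and 1 of 8 pericyte and smooth muscle genes, Tagln, fell, and none passed among 10 oligodendrocyte, 10 endothelial, 10 excitatory and 8 inhibitory neuron markers or the 10 of fibroblasts. Of 8 choroid plexus markers measured, Ttr fell. Tagln averaged 1.12 CPM in mVEGF-C+mAdu mice and 2.36 CPM in eGFP+mIgG mice, so its change rests on few reads. A negative log2 change was found for 5 of the 8 pericyte and smooth muscle genes. Over all genes, 0.988% fell and 1.19% rose in the combined comparison. Leaving out 1 mouse at a time, Ttr passed in 11 of 12 fits, Tagln in 8, C1qb in 7, Aldh1l1 in 5 and C1qa in 4. No marker was at 0 reads in any library.

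The effect of mAdu was asked over both vectors and within each. Over both, Mt1 fell (log2 -0.21, SE 0.041, a change of -13.3%, edgeR adjusted p = 0.0383) and was the only one of the 10 to pass, against 0.571% of all genes (0.316% lower). An unadjusted p under 0.05 was found for 4 of the 10 and 15.5% of all genes. Mt2 (log2 -0.35, SE 0.083) and Fkbp5 (log2 -0.14, SE 0.037) did not, with edgeR adjusted p = 0.0663 and 0.083. In turn without mice 1, 3, 4, 6, 9, 10 and 12, the edgeR adjusted p of Mt1 was 0.0805, 0.0901, 0.0781, 0.125, 0.0933, 0.1 and 0.136. It was 0.835 without the intermediate libraries (log2 -0.19, SE 0.063) and 0.133 without mice 5 and 6 (log2 -0.21, SE 0.055), where eGFP+mAdu is 1 mouse assumed to vary like the other groups. Mt2 passed in turn without mice 2, 5 and 8, at an edgeR adjusted p = 0.0387, 0.0408 and 0.0196.

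With the mVEGF-C vector, Mt1 averaged 88.8 ± 3.16 CPM in mVEGF-C+mAdu mice and 105 ± 7.76 CPM in mVEGF-C+mIgG mice (SD, n = 3 each). The groups did not overlap, and the log2 change of -0.25 (SE 0.059) did not pass (edgeR adjusted p = 0.0965). Mt2 was at 31.6 ± 1.75 CPM in mVEGF-C+mAdu mice and 42.3 ± 6.85 CPM in mVEGF-C+mIgG mice, a log2 change of -0.42 (SE 0.120). None of the 10 passed, against 0.208% of all genes. At an unadjusted p under 0.05 there were 3 of the 10 and 12.7% of all genes, and the groups did not overlap for 3 of the 10 and 16.5% of all genes. Without mouse 8, which had the lowest Mt1 of its group, Mt1 passed at an edgeR adjusted p = 0.0458. Mouse by mouse, mVEGF-C+mIgG had 112, 97.0 and 107 CPM of Mt1 and 49.6, 36.1 and 41.2 CPM of Mt2.

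With the eGFP vector, Fkbp5 was at 43.6, 47.5 and 47.1 CPM in eGFP+mAdu mice, against 54.2, 52.3 and 55.5 CPM in eGFP+mIgG mice. The groups did not overlap, but the log2 change of -0.23 (SE 0.052, unadjusted p = 0.000426) did not pass (edgeR adjusted p = 0.211). Mt1 was at 98.9, 99.4 and 99.1 CPM in eGFP+mAdu mice, all below the eGFP+mIgG mice given above (log2 -0.16, SE 0.058). Sgk1 was at 68.5, 72.7 and 68.7 CPM in eGFP+mAdu mice, against 73.9, 86.1 and 81 CPM in eGFP+mIgG mice (log2 -0.20, SE 0.102). Mt2 was at 33.3, 43.1 and 38.9 CPM in eGFP+mAdu mice and overlapped the controls (log2 -0.29, SE 0.116). Without mouse 1, the log2 change was -0.10 for Mt1 and -0.16 for Mt2, and without mice 5 and 6 it was -0.50 for Mt2 (SE 0.161, edgeR adjusted p = 0.336). None of the 10 passed, against 0.0336% of all genes. At an unadjusted p under 0.05 there were 3 of the 10 and 9.21% of all genes, and the groups did not overlap for 3 of the 10 and 15.4% of all genes. Mice 5 and 6, low in App, are in this group.

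The mVEGF-C vector was compared with eGFP over both antibodies and within each. None of the 10 passed over both antibodies, where 0.39% of all genes did. An unadjusted p under 0.05 was found for 5 of the 10 and 16% of all genes. Nearest were Tsc22d3 (log2 0.17, SE 0.047, edgeR adjusted p = 0.11), Sgk1 (log2 0.22, SE 0.072, edgeR adjusted p = 0.16) and Nr3c1 (log2 0.10, SE 0.034, edgeR adjusted p = 0.186). The log2 change of Sgk1 was 0.15 without mouse 11 (edgeR adjusted p = 0.22), and that of Nr3c1 was 0.06 with GC and length trends removed (edgeR adjusted p = 0.499).

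In mAdu-treated mice Tsc22d3 was at 75.4, 92.2 and 81.1 CPM in mVEGF-C+mAdu, against 67.3, 69.3 and 65.3 CPM in eGFP+mAdu (log2 0.30, SE 0.067, edgeR adjusted p = 0.0957). Sgk1 was at 74.1, 109 and 88.6 CPM in mVEGF-C+mAdu, against 68.5, 72.7 and 68.7 CPM in eGFP+mAdu (log2 0.37, SE 0.101, edgeR adjusted p = 0.134). Neither gene's groups overlapped, and mouse 11 was the highest of all 12 for both. Leaving out 1 mouse at a time, each passed in 1 of 12 fits, Tsc22d3 without mouse 8 (edgeR adjusted p = 0.0497) and Sgk1 without mouse 10 (edgeR adjusted p = 0.0494). Without mouse 11 the log2 change was 0.22 for Tsc22d3 (edgeR adjusted p = 0.183) and 0.22 for Sgk1 (edgeR adjusted p = 0.258). The groups did not overlap for 5 of the 10 genes, against 21.7% of all genes, and 0 of the 10 passed, against 0.047%. An unadjusted p under 0.05 was found for 4 of the 10 and 14.3% of all genes.

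With mIgG, the log2 changes of mVEGF-C+mIgG against eGFP+mIgG ran from -0.15 for Mt2 to 0.11 for Nr3c1. The groups overlapped for all 10 genes, while 12.4% of all genes did not overlap, and 0 of 10 passed, against 0.0403% of all genes. Nr3c1 alone had an unadjusted p under 0.05, as did 7.91% of all genes, and its log2 change was 0.06 without mouse 1 and 0.07 without mouse 8. Nr3c1 was at 174.5, 196 and 189 CPM in mVEGF-C+mIgG and 181, 189 and 186 CPM in eGFP+mAdu mice. This comparison, the antibody comparison with eGFP and the combined one share the eGFP+mIgG mice.

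Whether the antibody's effect differed between vectors was tested as an interaction, which none of the 10 passed, against 0.0134% of all genes. An unadjusted p under 0.05 was found for 2 of the 10, Tsc22d3 and Fkbp5, and 6.82% of all genes. The interaction was 0.25 (SE 0.094) for Tsc22d3, 0.17 (SE 0.073) for Fkbp5 and 0.30 (SE 0.143) for Sgk1 on the log2 scale, with edgeR adjusted p = 0.673, 0.706 and 0.744. That for Mt1 was -0.08 (SE 0.082) and that for Nr3c1 -0.01 (SE 0.069).

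Zbtb16 averaged 52.4 ± 1.47 CPM in mVEGF-C+mAdu, 50.5 ± 4.00 in mVEGF-C+mIgG, 48.4 ± 6.85 in eGFP+mAdu and 50.7 ± 3.89 CPM in eGFP+mIgG mice (SD, n = 3 each). Mouse by mouse it was at 53.5, 50.7 and 52.9 CPM (mVEGF-C+mAdu), 52.4, 53.2 and 45.9 (mVEGF-C+mIgG), 41.9, 55.6 and 47.7 (eGFP+mAdu) and 48.3, 55.2 and 48.7 CPM (eGFP+mIgG). Groups overlapped in every comparison. Cdkn1a was at 1.19, 1.74 and 1.248 CPM in mVEGF-C+mAdu, 0.896, 1.79 and 1.68 in mVEGF-C+mIgG, 1.11, 1.99 and 2.03 in eGFP+mAdu and 1.23, 1.67 and 1.45 CPM in eGFP+mIgG mice, with SE of 0.196 to 0.391 on its log2 changes over the 8 comparisons. Its groups overlapped too, and changes within those errors were not detectable at this depth. Mt3 was at 138, 102 and 118 CPM in mVEGF-C+mIgG and 117.5, 116 and 111 CPM in eGFP+mAdu mice, Fkbp5 at 55.1, 49.9 and 49.9 CPM in mVEGF-C+mIgG, Sgk1 at 77.1, 90.6 and 86.3 CPM and Tsc22d3 at 76.1, 68.5 and 75.9 CPM in that group.

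Other genes of these pathways were counted from lists. Of all genes, 2.18% passed in the combined comparison (1.19% higher, 0.988% lower) and 0.208% for mAdu under mVEGF-C. The share was 0.571% for mAdu over both vectors, 0.39% for mVEGF-C over both antibodies and 0.0403% for mVEGF-C with mIgG. The counts below stand beside these shares. Without the intermediate libraries, no gene named below as risen or fallen passed in the comparison it is named for. Of 31 further glucocorticoid-induced genes measured, 1 fell and 30 did not pass in mVEGF-C+mAdu against eGFP+mIgG, with a median log2 change of -0.02. The one was Lcn2, a siderophore-binding protein of reactive astrocytes that is also induced by inflammation, at 0.171 ± 0.0554 CPM in mVEGF-C+mAdu mice and 1.52 ± 0.0659 CPM in eGFP+mIgG mice (log2 -3.11, SE 0.444, edgeR adjusted p = 0.0057). In mVEGF-C+mAdu mice it lay at 0.121 to 0.230 CPM, below the lowest value of Cdkn1a, 0.896 CPM. The size of its changes thus rests on very few reads. Lcn2 fell too with mAdu under mVEGF-C (log2 -2.56, SE 0.479, edgeR adjusted p = 0.0429) and over both vectors (log2 -2.02, SE 0.295, edgeR adjusted p = 0.00806). Leaving out 1 mouse at a time, it passed in 11 of 12 fits in the combined comparison and over both vectors, though not without mouse 12, and in 4 of 12 under mVEGF-C. Bcl6, a transcriptional repressor, came nearest otherwise, at 43.4 ± 4.01 CPM in mVEGF-C+mAdu and 33.4 ± 0.649 CPM in eGFP+mAdu mice (log2 0.38, SE 0.066, edgeR adjusted p = 0.0556).

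Of 19 receptor chaperones, cofactors and steroid enzymes, 2 rose and 17 did not pass in the combined comparison, where 1.19% of all genes rose. They were Hsp90aa1, the chaperone that holds the receptor ready for hormone (log2 0.19, SE 0.042, edgeR adjusted p = 0.0366), and its partner Ptges3, or p23 (log2 0.14, SE 0.033, edgeR adjusted p = 0.035). Leaving out 1 mouse at a time, Hsp90aa1 passed in 5 and Ptges3 in 4 of 12 fits. Ptges3 averaged 161 ± 1.82 CPM in mVEGF-C+mAdu mice and 146 ± 1.91 CPM in eGFP+mIgG mice. Of 18 genes of metal and redox handling none passed in any of the 8 comparisons. The nearest were the ferritin chain Fth1 for mAdu over both vectors (log2 -0.15, SE 0.035, edgeR adjusted p = 0.0571) and the zinc exporter Slc30a1, a target of MTF1, in the combined comparison (log2 -0.18, SE 0.052, edgeR adjusted p = 0.0808).

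Of 18 genes induced, like Cdkn1a, by p53, none passed in any comparison. The nearest were Ccng1 in the combined comparison (log2 0.18, SE 0.044, edgeR adjusted p = 0.0503) and Btg2 for mVEGF-C with mIgG (log2 0.45, SE 0.113, edgeR adjusted p = 0.339). Of 16 circadian clock genes 1 rose in the combined comparison, the repressor Nr1d2 (log2 0.26, SE 0.064, edgeR adjusted p = 0.0492), at 142 ± 3.62 CPM in mVEGF-C+mAdu mice and 119 ± 8.02 CPM in eGFP+mIgG mice. It passed in 3 of 12 fits that left out 1 mouse, without mouse 2, 7 or 8. Of 14 immediate early genes, of which Btg2 and Dusp1 also stand in another list, 6 rose there and 8 did not pass, with a median log2 change of 0.42. The 4 with the smallest p were Fos (log2 0.99), Egr2 (1.57), Fosb (0.82) and Nr4a1 (0.67). Without mouse 1 or mouse 12, 0 of the 14 passed, and 0.141% and 0.0806% of all genes did. Without mouse 7 or mouse 8 it was 8 of the 14, and 3.99% and 3.84% of all genes. For mVEGF-C over both antibodies 7 of the 14 rose, led by Fos (log2 0.90), Egr2 (1.34), Arc (0.61) and Fosb (0.66), and with mIgG Npas4 (0.88) and Fos (1.02) rose. Over both antibodies, Fos passed in 12 of 12 fits that left out 1 mouse. The list's count was lowest, at 1, without mouse 3, 6 or 9, where 0.0605%, 0.0336% and 0.0269% of all genes passed. It was highest, at 9, without mouse 7, where 1.7% of all genes did. With mIgG, 0 of the 14 passed without mouse 3 or mouse 9, where 0.0269% and 0.00672% of all genes did. Npas4 fell with mAdu over both vectors (log2 -0.71) and under mVEGF-C (-1.08), in 12 of 12 such fits each. Of 11 interferon response genes none passed in the combined comparison, and 5 fell with mAdu under mVEGF-C. Among them were Ifit3 (log2 -1.11), Iigp1 (-1.33), Usp18 (-2.003) and Irf7 (-1.32). In mVEGF-C+mAdu mice Usp18 averaged 0.423, Irf7 0.806 and Iigp1 1.46 CPM, so the size of their changes rests on few reads. Under mVEGF-C, 0 of the 11 passed without mouse 9, 10 or 12, where 0.0134%, 0.0202% and 0.0134% of all genes did. Without mouse 7 it was 8 of the 11, and 0.927% of all genes. Ifit3 also fell with mAdu over both vectors (log2 -0.55), in 4 of 12 such fits.

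Likeness was measured as Pearson's r of log2 CPM over the 12 libraries and is a description, since the libraries share groups and possibly material. Most like Mt1 were Trpm3 (0.953), Trank1 (0.951) and Aldh1l1 (0.946), and most like Mt2 were Trpm3 (0.946), Mt1 (0.942) and Tnxb (0.93). Most like Nr3c1 were Crebrf (0.976), Spred1 (0.974) and Dio2 (0.966). Mt3 was nearest to Pgbd5 (0.955), Hist1h1c (0.923) and Scarna2 (0.918), and Nr3c2 to Bcl11b (0.932), Gldc (0.916) and Spink8 (0.914). Fkbp5 was nearest to Nptx1 (0.924), Camk2b (0.909) and Anapc1 (0.903). Sgk1 was nearest to Zfp882 (0.915), Irf2bp2 (0.914) and Hnrnpf (0.908), and Tsc22d3 to Slc25a33 (0.928), Nfil3 (0.921) and Pqlc1 (0.918). Zbtb16 was nearest to Ankrd33b (0.905), D5Ertd579e (0.898) and Phlpp1 (0.886), and Cdkn1a to Ldlrad3 (0.88), Rnf24 (0.862) and Abi3bp (0.857).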

How the data were processed

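The authors deposited raw counts of reads per gene, not normalized, with 1 column per library. The submitters' processing notes name STAR, Subread with featureCounts, Trim Galore, FastQC and edgeR, and the mm10 build; versions, annotation, strand use and multi-mapping settings are not given in those sources. The extract protocol, per the labels, names the Arcturus PicoPure kit and linear RNA amplification. The lowest gene total was 147 reads, and filterByExpr removed 0 genes. GENCODE M21 on GRCm38 named 14791 identifiers and left 90 without a symbol.

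Here edgeR 4.0.16 (R 4.3.3) was used on those counts with TMM scaling, 1 mean per group, all 12 libraries in 1 model and 8 two-sided contrasts, each adjusted over all genes. DESeq2 1.42.0, limma 3.58.1, DESeq2 size factors, other filters on low counts, fits of the compared groups alone, and fits without single libraries, the intermediate libraries or mice 5 and 6 were alternatives. Removal of GC and length trends was added after seeing the data. CPM are relative to TMM-scaled totals, and log2 CPM used a prior count of 2.

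Members, gene lists and the libraries to leave out were chosen with earlier results of these data known. The naming rule took all members, up to 4 genes per pathway list that passed in a contrast by smallest p, otherwise up to 2 nearest to passing, and the 3 genes most like each member. Bcl6 and the cell type markers that passed were named outside it, after their values were seen.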

Additional observations from a re-analysis of the deposited data

How the results depend on the processing

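No paired analysis was possible because the groups share no mouse number. The 27 log2 changes with an unadjusted p under 0.05 kept their sign under every alternative run. Scaling with DESeq2 size factors, no filter on low counts and a minimum mean CPM of 1 left each count of genes that passed within 1.5 times, although Nr3c1 in the combined comparison had an adjusted p of 0.0513 with DESeq2 size factors by edgeR. The DESeq2 Wald test called 1 of the 10 for mAdu with eGFP (Fkbp5), 1 for mAdu with mVEGF-C (Mt1) and 1 for mVEGF-C with mAdu (Tsc22d3), against 0 each, where it called 0.422%, 0.847% and 0.947% of the genes it gave an adjusted p. Limma-voom with sample quality weights called 2, 2, 3, 5, 4 and 5 for mAdu with eGFP, mAdu with mVEGF-C, mVEGF-C with mAdu, the combined comparison, mAdu over both vectors and mVEGF-C over both antibodies, against 0, 0, 0, 3, 1 and 0; of all genes it called 3.41%, 8.29%, 6.52%, 17.9%, 11.3% and 12%. Without the intermediate libraries 0 passed in the combined comparison and 0 for mAdu over both vectors, and without mice 5 and 6 it was 0 for mAdu over both vectors. Leaving out 1 library at a time gave 0 to 4 genes in the combined comparison (0.0806% of all genes without mouse 12 to 3.99% without mouse 7), 0 to 2 for mAdu over both vectors (0.0605% to 1.16% of all genes), 0 to 1 for mAdu with mVEGF-C (0.0134% to 0.927% of all genes), 0 to 1 for mVEGF-C with mAdu (0% to 0.739%) and 0 for the other 4. Settings with fewer libraries also have fewer residual degrees of freedom; other causes were not tested. Depth limits Cdkn1a, at 22 to 54 reads a library.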
